A study of Homo sapiens with 12 samples.

Results

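RNA from 3 established human melanoma cell lines grown in atmospheric oxygen (normoxia) was compared by setting A2058 against A375 and SKMEL-5. The comparison used 6 of the 12 libraries of the series, chosen by their labelled line and culture condition: 2 libraries of A2058 on one side, and 2 of A375 and 2 of SKMEL-5 on the other. The labels call every line metastatic melanoma, and the design text calls the libraries of a line biological duplicates. The other 6 libraries come from the same lines in 1% oxygen. The labels name no added gene or drug, and the culture medium is not stated in the labels. Each side is made of established lines, so that A2058 stands for 1 line only, and p-values measure the spread between cultures of these lines and not between melanomas.

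Melanocytes make melanin in melanosomes. The enzymes tyrosinase (TYR), TYRP1 and DCT make the pigment, the protein PMEL forms the fibrils on which it is laid down, and transporters such as OCA2, SLC45A2 and SLC24A5 set the conditions inside the organelle. The transcription factor MITF, acting with SOX10 and PAX3, drives many of these genes through the DNA motif CATGTG. Melanoma cells are often described as lying between a melanocytic state with these genes on and a dedifferentiated, invasive state marked by the receptor kinase AXL.

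The comparison was drawn up as a pigmented line against amelanotic lines, and pigment itself was not measured. TYR, PMEL and MLANA, an antigen of the melanosome, separated A2058 from the other libraries. AXL did not. It stood at 51.4 and 352 CPM (counts per 1000000 of the TMM-scaled library total) in A2058 replicates 1 and 2, 472 and 724 in A375 and 159.7 and 450.4 in SKMEL-5, so that A2058 replicate 2 lay among the others. Within each replicate number A2058 had the lowest AXL level, and a fit with that number as a block called AXL lower, as given below. Because pigment was not measured and the main fit did not call AXL, the sides are called by the names of their lines.

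Library totals ran from 33831569 to 50999425 counts, and a gene with 0 counts in a library can lie at up to 0.0538 to 0.0905 CPM there (3 counts), a limit for counting error only. SK-MEL-5 is generally described as a line that expresses melanocyte genes, yet both libraries labelled SKMEL-5 had 0 counts of TYR and MLANA. They also resembled the A375 libraries: across genes, Pearson's r of their log2 CPM was 0.959 to 0.987 between A375 and SKMEL-5 libraries, 0.980 between the A375 replicates and 0.971 between the SKMEL-5 replicates. A2058 libraries correlated with the others at 0.819 to 0.862 and with each other at 0.962, and genes are not independent replicates. No gene differed between A375 and the libraries labelled SKMEL-5 by edgeR's quasi-likelihood test (0% of 18347 tested higher and 0% lower, smallest adjusted p 0.782), with 773 at an unadjusted p under 0.05, 27 by DESeq2 and 0 by limma-voom. The 4 libraries set against A2058 therefore may not represent separate lines, and whether they do was not tested. The normoxia libraries also differed by replicate number. The hypoxia marker CA9 stood at 20.3 and 0.0905 CPM in A2058 replicates 1 and 2, 5.22 and 0.848 in A375 and 10.4 and 0.228 in SKMEL-5, higher in replicate 1 of each line. The share of counts from mitochondrial genome genes was 20.1% and 7.64% in A2058 replicates 1 and 2 and 2.79% to 6.31% in the other libraries.

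Across 18347 tested genes, 2355 were higher in A2058 than in the mean of A375 and SKMEL-5 (12.8%) and 2005 were lower (10.9%). Every adjusted p below comes from edgeR's quasi-likelihood test with Benjamini-Hochberg adjustment over all tested genes unless another tool is named, and a gene is called at an adjusted p under 0.05. The median called gene was 4.43-fold higher, or 13.9-fold lower, in A2058. At least 4-fold fitted differences were called for 1271 higher and 1491 lower genes, and at least 16-fold for 532 and 950. Genes with 0 counts on one side have no fitted fold that bounds them; with such genes at the fold their limit of 3 counts allows, the medians were 4.41- and 8.38-fold, and 504 higher and 679 lower genes reached 16-fold. Of the called genes, 95 had 0 counts in each of the 4 other libraries and 364 had 0 counts in both A2058 libraries. Having 0 counts in both A2058 libraries is a weaker condition than in all 4 others, and such genes passed the low-count filter only through their higher side. These counts, and the median folds that include such genes, are therefore not compared between the directions. The A2058 libraries did not overlap the 4 others for 2329 of the genes called higher and 2004 of those called lower; over all tested genes, such a gap was present for 23.5% with A2058 higher and 23.2% with A2058 lower. A fit with the replicate number as a block called 4061 genes higher and 3741 lower, among them 2353 and 2005 of those above. Without A375 replicate 1 the counts were 1412 higher and 1200 lower, and without A375 replicate 2 they were 1356 and 1317. In the plot of all tested genes, genes with no or few counts on one side form the diagonal lines.

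**Figure D1:**
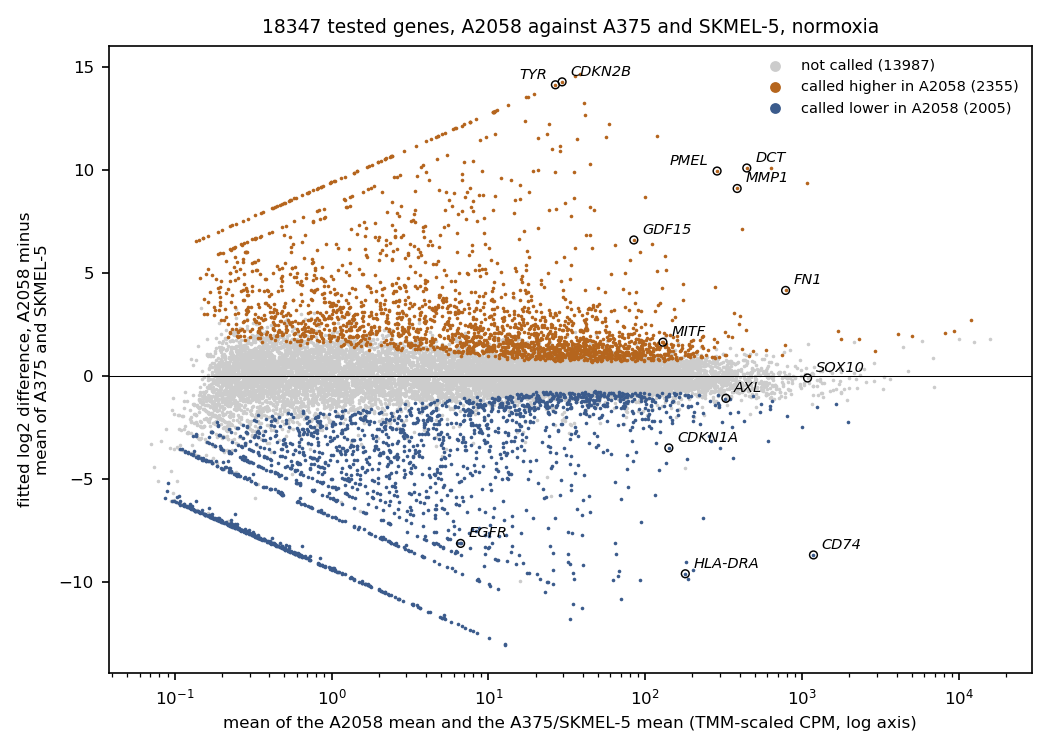
Fitted log2 difference (A2058 minus the mean of A375 and SKMEL-5, vertical axis) of each of the 18347 tested genes against its mean level (TMM-scaled CPM, log axis). The 2355 genes called higher are brown and the 2005 called lower are blue, with TYR, DCT, PMEL and CDKN2B near the top, CD74 and HLA-DRA near the bottom, and SOX10 and AXL among the genes not called.

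Genes for melanin enzymes and melanosome proteins had the largest median difference of the 28 lists read. Of 14 tested members, 13 were higher in A2058 and 0 lower, with a median log2 difference of 5.86 against -7.56e-05 over all tested genes. For this and every later list, the shares to set beside its counts are 12.8% higher and 10.9% lower, over all tested genes. The medians of all 28 lists were the same with genes at 0 on one side put at their limit. In bulk RNA, fewer cells that express a gene and less RNA per cell cannot be told apart. TYR, which catalyses the rate-limiting step of melanin synthesis, stood at 9.998 and 96.9 CPM in A2058 and had 0 counts in the 4 other libraries, at least 715-fold higher against the highest limit of 3 counts in any of these libraries (adjusted p = 0.00264). DCT, which acts after tyrosinase, stood at 1096 and 677 CPM in A2058 and at 0.249 to 2.81 CPM in the others, a log2 difference of 10.11 ± 0.45 (SE). PMEL stood at 382 and 765 CPM against 0.228 to 1.2 CPM, a log2 difference of 9.96 ± 0.64 (SE). Each of these genes had a wide gap between the sides, and TYR also spread widely within A2058.

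MLANA, which helps PMEL to mature, stood at 6.14 and 21 CPM in A2058 and had 0 counts elsewhere, at least 181-fold higher (adjusted p = 0.00114). The sodium-calcium exchanger SLC24A5 stood at 59.8 and 41.4 CPM against 0 to 0.0476 CPM, from 0 to 2 counts per library in the others (adjusted p = 8.19e-05). The chloride channel gene OCA2 stood at 3.15 and 8.15 CPM against 0.124 to 0.452 CPM (log2 difference 4.37 ± 0.61), and the transporter SLC45A2 at 0.548 and 11.7 against 0.0538 to 0.404 CPM (log2 difference 5.36 ± 1.06). For SLC45A2 the lower A2058 library lay close to the highest of the others. The melanosome receptor GPR143, the channel TRPM1, the protease CAPN3, the cyclase QPCT and the channel MCOLN3 were also higher, the last with a log2 difference of 2.38 ± 0.31. GPNMB, a melanosome glycoprotein also made by other cells, was well expressed on both sides, at 736 and 579.9 CPM against 47.4 to 112 CPM (log2 difference 3.08 ± 0.41). TSPAN10 was the tested member not called, at 1.42 and 3.92 CPM against 0.848 to 3.5 CPM. TYRP1 did not pass the low-count filter, with 7 and 424 counts in A2058 replicates 1 and 2 and 1 to 6 in the others, and SLC24A4 had 0 counts. The member count was 12 to 14 when any single library was left out, and 13 with the replicate block.

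**Figure D2:**
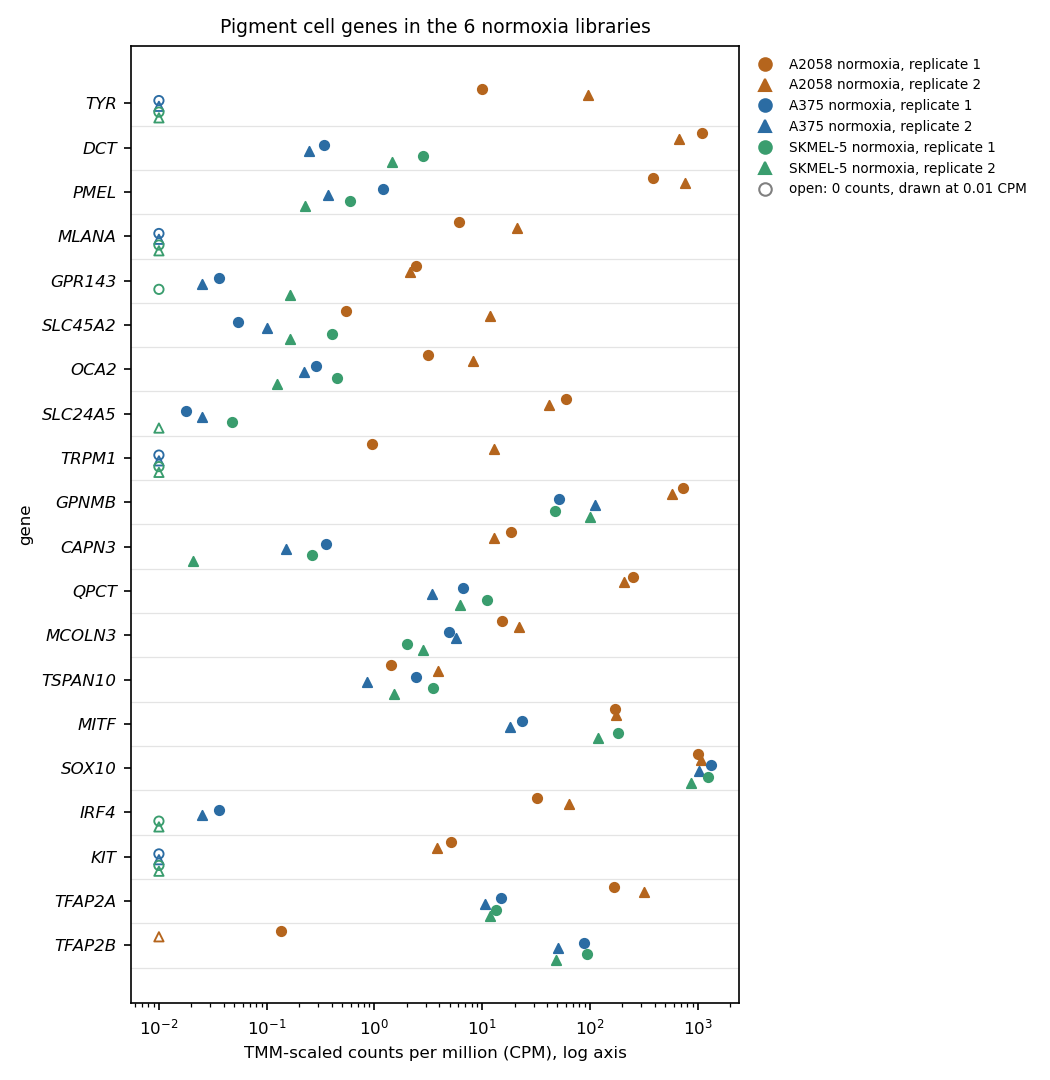
Level of 20 pigment cell genes in each of the 6 normoxia libraries (TMM-scaled CPM, log axis; circles replicate 1, triangles replicate 2, open symbols 0 counts drawn at 0.01 CPM). For 13 of the 14 melanosome genes at the top both A2058 libraries lie to the right of all others; MITF in SKMEL-5 lies beside A2058, SOX10 is level, and TFAP2A and TFAP2B lie in opposite order.

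The promoters of these genes were read for the MITF motif. MITF is known to drive many of them, so a high share with the motif follows in part from the choice of list. RefSeq windows on GRCh38.p14 were found for 11 of the 13 members called higher, some with several starts, and the 250 bases before each start were searched on both strands. CATGTG or its reverse complement CACATG was present for 7 of the 11 genes, in 8 of their 15 windows (53.3%), against 9.42% of all 35116 windows, 6.61% of those of tested genes, 7.82% of those of genes called higher and 7.33% of those of genes called lower. The motif was not limited to members called higher: of the 3 other members with a window, 2 held it, TSPAN10, which was not called, and TYRP1, which was not tested. The stretch around the matches of each of the 7 genes called higher is given 5′ to 3′ on the gene's strand, with the matches in capitals. TYR is at chr11:89177741-89177874 on the plus strand, DCT at chr13:94479781-94479927 on the minus strand, GPNMB at chr7:23246622-23246748 on the plus strand and GPR143 at chrX:9765848-9765938 on the minus strand. OCA2 (chr15:28099433-28099498, minus strand), SLC24A5 (chr15:48120945-48120989, plus strand) and the downstream of 2 TRPM1 starts with a match (chr15:31101746-31101811, minus strand) follow.
TYR: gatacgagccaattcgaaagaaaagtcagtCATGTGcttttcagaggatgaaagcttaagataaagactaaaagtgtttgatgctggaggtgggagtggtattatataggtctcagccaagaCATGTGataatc
DCT: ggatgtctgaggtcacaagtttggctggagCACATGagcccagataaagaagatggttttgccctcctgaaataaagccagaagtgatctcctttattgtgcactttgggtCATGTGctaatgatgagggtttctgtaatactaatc
GPNMB: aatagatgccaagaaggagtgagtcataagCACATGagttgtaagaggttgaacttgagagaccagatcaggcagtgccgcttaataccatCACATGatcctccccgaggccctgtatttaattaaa
GPR143: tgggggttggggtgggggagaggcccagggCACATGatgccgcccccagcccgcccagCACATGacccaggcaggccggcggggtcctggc
OCA2: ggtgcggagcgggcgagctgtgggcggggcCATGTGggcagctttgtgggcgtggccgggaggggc
SLC24A5: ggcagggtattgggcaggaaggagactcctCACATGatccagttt
TRPM1: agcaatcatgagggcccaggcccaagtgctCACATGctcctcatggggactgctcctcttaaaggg
TYR, DCT, GPNMB and GPR143 each held 2 matches. In TYR the first bases of the matches lay at positions -104 and -12 from the start, in DCT at -215 and -134, in GPNMB at -123 and -62 and in GPR143 at -61 and -33. The related motif CACGTG was in 0 of the 15 windows (6.34% of all), and TGAGTCA, the motif of the AP-1 factors, and CATTCC, that of the TEAD factors, in 1 each (6.67%, against 4.2% and 11.9% of all windows). A site counted for one motif is not counted for another, and a window may hold several. A match describes the sequence only.

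Genes that build and move melanosomes differed less. Of 27 tested members, 10 were higher and 1 lower, with a median log2 difference of 0.71. MLPH, which links melanosomes to the motor myosin Va, stood at 9.998 and 29.99 CPM in A2058 against 0.975 to 2.5 CPM (log2 difference 3.63 ± 0.54), and RAB27A, the GTPase on the same complex, at 30.1 and 34.3 against 6.56 to 10.9 CPM (log2 difference 1.92 ± 0.26). The motor itself, MYO5A, was not called, at 128 and 202 against 61.4 to 130.0 CPM. HPS4, a subunit of a complex mutated in Hermansky-Pudlak syndrome, stood at 144 and 84.8 CPM against 23.7 to 31.8 CPM, and DTNBP1, LYST, KIF13A, HPS1, HPS3, RAB32 and MREG were higher by 1.88- to 3.23-fold. BLOC1S2 was lower, at 15.7 and 13.6 against 23 to 54.4 CPM. Its call was lost with a minimum fold of 2 and without A2058 replicate 2 or either A375 library. Of the members, 4 to 9 were higher when 1 library was left out, the lowest count without A375 replicate 2.

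Among receptors and transcription factors of the melanocyte lineage, 8 of 14 tested members were higher and 1 lower, with a median log2 difference of 1.47. MITF did not follow the pigment genes across all lines. It stood at 172 and 176 CPM in A2058, 23.3 and 18.1 in A375 and 181 and 119 in the libraries labelled SKMEL-5, so that SKMEL-5 overlapped A2058. Its log2 difference was 1.64 ± 0.26 (SE, adjusted p = 0.0042) against the mean of both lines, 3.07 against A375 (adjusted p = 0.00147) and 0.21 against SKMEL-5 (adjusted p = 0.666). With the 4 other libraries taken as 1 group the call was lost (adjusted p = 0.374). The SKMEL-5 libraries thus had MITF at the level of A2058 and TYR and MLANA at 0 counts. SOX10 stood at 1018 and 1073 CPM in A2058 and 864 to 1344 CPM in the others, with all sides overlapping (adjusted p = 0.856). PAX3 was not called, at 26.2 and 39.9 against 18.4 to 21.7 CPM.

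IRF4, a transcription factor that cooperates with MITF at the TYR gene, stood at 32.6 and 64.1 CPM in A2058 against 0 to 0.0359 CPM, from 0 to 2 counts per library (adjusted p = 0.000128). KIT, the receptor for stem cell factor, stood at 5.12 and 3.83 CPM and had 0 counts in the others, at least 59.9-fold higher (adjusted p = 0.000756). TFAP2A, an AP-2 factor of melanocytes, was higher at 168 and 321 against 10.6 to 14.8 CPM (log2 difference 4.26 ± 0.32), while its paralog TFAP2B stood at 0.137 and 0 CPM in A2058, 5 and 0 counts, against 48.6 to 93.5 CPM. The third AP-2 gene of the lists, TFAP2C, was lower as well, at 4.19 and 22.7 against 193 to 344 CPM (log2 difference -4.24 ± 0.74). The endothelin receptor EDNRB, LEF1, TBX2 and CDK2 were higher by log2 differences of 1.57, 1.86, 1.64 and 1.37. MC1R, the melanocortin receptor, was not called, at 8.41 and 9.63 against 5.24 to 11 CPM.

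Genes of the neural crest-like state were mixed. Of 16 tested members, 3 were higher, RXRG among them, and 4 lower (AQP1, PRIMA1, SLITRK6 and TFAP2C), with a median log2 difference of 0.14. NGFR, the low-affinity nerve growth factor receptor, stood at 1.31 and 76.7 CPM in A2058, 28.9 and 146 in A375 and 23.8 and 107 in SKMEL-5. Within each replicate number it was lowest in A2058. Replicate 1 was the lower library in each line, and NGFR was not called (adjusted p = 0.641). It was called lower with no low-count filter (adjusted p = 0.0131) and without A2058 replicate 2 (log2 difference -5.87). No other alternative setting called NGFR, the replicate block among them (adjusted p = 0.0657). RXRG lost its call by limma-voom, with a minimum fold of 2, and when A2058 replicate 1, either A375 library or SKMEL-5 replicate 2 was left out. SLITRK6 lost its call with a minimum fold of 2 and when either A375 library was left out.

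Of 38 tested genes of the dedifferentiated and invasive state, 8 were lower and 3 higher in A2058, with a median log2 difference of -1.01. Over all tested genes 10.9% were lower and 12.8% higher, so that only the lower count was above its share. EGFR, the epidermal growth factor receptor, stood at 0.0274 and 0.0603 CPM in A2058, 1 and 2 counts, against 4.33 to 20.2 CPM (adjusted p = 0.00124). WNT5A, a ligand of noncanonical Wnt signalling, stood at 0 and 0.483 CPM in A2058, 0 and 16 counts, against 15.8 to 38.2 CPM (adjusted p = 0.00274). The factor TWIST2 had 0 counts in A2058 against 4.97 to 5.67 CPM, at least 59.3-fold lower, while its paralog TWIST1 was higher, at 44.1 and 29.3 against 8.48 to 16.7 CPM (log2 difference 1.63 ± 0.29). PDGFRB, INHBA, EPHA2, SMAD3 and SNAI1 were lower, with log2 differences of -3.35, -5.98, -2.33, -2.19 and -1.05. Fibronectin (FN1) was higher: it stood at 282 and 2666 CPM against 34.6 to 233 CPM, and lost its call without A2058 replicate 2 (adjusted p = 0.0677).

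Of the 38 tested members of this list, 21 (55.3%) had more CPM in replicate 2 than in replicate 1 in each of the 3 lines, against 24.5% of all tested genes, and 0 had more in replicate 1 in each line. AXL had a log2 difference of -1.08 ± 0.77 (SE, adjusted p = 0.346), and the thrombospondin gene THBS1 stood at 8.79 and 1239 CPM in A2058, 992 and 3272 in A375 and 163 and 2259.8 in SKMEL-5. For both genes replicate 2 was the higher library in each line. Without A2058 replicate 2, AXL was called lower (log2 difference -3.07, adjusted p = 0.0138), as it was with no low-count filter (adjusted p = 0.00911). With the replicate block AXL was also called lower (adjusted p = 0.0257), and the list had 18 members lower and 5 higher. No other alternative setting called AXL, with DESeq2, limma-voom and the fit without A2058 replicate 1 among those that did not. Without A2058 replicate 1 and SKMEL-5 replicate 1, the normoxia libraries with the most CA9, 14 members were lower and 6 higher, a setting chosen after seeing the data. Leaving out 1 library gave 6 to 23 lower members, the lowest without either A375 library. The part of the replicate difference in these values was not tested beyond these fits.

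The largest differences among protein-coding genes with at least 5 CPM in every library of the higher side included several genes outside the lists. CA14, a membrane carbonic anhydrase, stood at 33.1 and 45.6 CPM in A2058, and GYG2, a glycogenin that primes glycogen synthesis, at 34.8 and 35.2 CPM. Both had 0 counts in the 4 other libraries, at least 526-fold and 468-fold higher. The myelin gene MBP stood at 47.1 and 116 CPM against 0 to 0.0359 CPM, with 2 counts in A375 replicate 1 and 0 in the other 3 libraries. SOX8, a relative of SOX10, stood at 20.9 and 22.4 CPM, the granzyme B inhibitor SERPINB9 at 25.3 and 18 CPM and TDRD9 at 19.4 and 25.8 CPM, each with 0 counts in the others and at least 289-, 289- and 302-fold higher.

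In the other direction, ARPP21, the channel subunit CACNG8, the forkhead factor FOXC2, the atypical cadherin FAT3, CDH12, STAC and SLC24A3 had 0 counts in both A2058 libraries. ARPP21 stood at 19.5 to 33.3 CPM in A375 and SKMEL-5 (at least 283-fold lower in A2058) and FOXC2 at 9.49 to 30.4 CPM (at least 224-fold). Among such genes with at least 1 CPM in every library, the retrotransposon-derived imprinted gene PEG10 had the largest difference in favour of A2058. It stood at 732 and 911 CPM against 2.05 to 10.4 CPM (log2 difference 7.16 ± 0.74). The adenylyl cyclase ADCY1, the elastic fibre protein FBLN5, MOXD1 and APOD were higher by log2 differences of 5.64, 6.38, 6.02 and 5.40. Lower were the calcium-regulated factor NFATC2 (1.21 and 7.0 against 142 to 276 CPM), the actin-capping protein CAPG (4.79 and 2.17 against 122 to 209 CPM), ARHGAP4 and FBXO27. Of non-coding genes, CEROX1 stood at 33.2 and 20.2 CPM with 0 counts in the others, and LHFPL3-AS1 at 198 and 37.6 CPM against 0 to 0.0476 CPM. No source used here gives the strand setting of the counting, and reads of LHFPL3-AS1 and of genes on the other strand cannot be told apart. LINC01224 had 0 counts in A2058 against 7.9 to 15 CPM.

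Genes for presenting antigen on HLA class II were low in A2058. Of 27 tested antigen presentation genes, 11 were lower and 3 higher, with a median log2 difference of -0.83; 10 of the 11 belong to the class II pathway. CD74, the invariant chain that guards the class II groove, stood at 3.53 and 7.81 CPM in A2058, 2364 and 2453 in A375 and 2760.2 and 1849.8 in SKMEL-5 (log2 difference -8.70 ± 0.66). CIITA, the transactivator that class II genes require, stood at 0.52 and 6.46 CPM against 63.8 to 156 CPM (log2 difference -5.14 ± 1.01). HLA-DRA, the less variable DR chain, stood at 0.657 and 0.241 CPM against 303 to 455 CPM (log2 difference -9.61 ± 0.59). No A2058 library came near the others for these genes. HLA-DRB1, HLA-DQA1, HLA-DQB1, HLA-DPA1, HLA-DMA and HLA-DMB were also lower, the 2 DM genes by log2 differences of -4.17 and -2.37. HLA-DPB1 differed least, at 31 and 31.2 against 63 to 79.3 CPM. Counts of HLA genes depend on how reads of near-identical and variable genes were assigned, and HLA-DQA2, at 0 counts in A2058 against 11.2 to 24 CPM, shares much sequence with HLA-DQA1. CD74 and CIITA are single genes outside that family.

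The class I side was mixed. HLA-B was lower, at 16 and 28.9 against 145 to 265 CPM, and was the only class I heavy chain of the list called. The peptide trimmer ERAP2 was higher, at 51.3 and 62 against 2.29 to 3.91 CPM (log2 difference 4.18 ± 0.28), as were TAPBP and TAP2. TAP2 lost its call by limma-voom, in the fit of all 12 libraries and with a minimum fold of 2. Its call was also lost without A2058 replicate 2 or any 1 library of the other lines. Of 29 interferon-stimulated genes, 4 were lower and 1 higher, with a median log2 difference of -0.25. The lower count was near the share of all tested genes (10.9%) and the higher count below it (12.8%). Of the 4 lower members, 3 were the oligoadenylate synthetase genes OAS1, OAS2 and OAS3, with OAS1 at 0.192 and 0.603 against 14.8 to 20.4 CPM. CGAS, the sensor of cytosolic DNA, was the member higher in A2058, at 14.5 and 20.2 CPM against 0 to 0.0621 CPM, from 0 to 3 counts per library in the others (adjusted p = 0.000213). Among 14 tested cancer-testis antigens, MAGEA1, MAGEB2, MAGEC1 and SSX1 were higher and MAGEA4 and MAGEC2 lower. MAGEA1 stood at 22.8 and 35.4 against 0.476 to 1.62 CPM and MAGEA4 at 77.4 and 21.3 against 499 to 661 CPM. These families hold near-identical copies, so that their counts are uncertain.

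The cell-cycle inhibitors of chromosome 9 separated the lines. CDKN2B (p15), at chr9:22002903-22009363 of GRCh38, stood at 66.8 and 51.2 CPM in A2058 and had 0 counts in each of the 4 other libraries, at least 789-fold higher (adjusted p = 0.000157). CDKN2A (p16 and ARF), at chr9:21967753-21995301, stood at 193 and 97.1 against 3.0 to 6.88 CPM (log2 difference 5.0 ± 0.44). MTAP, the neighbouring enzyme of methionine salvage, was lower in A2058, at 90.2 and 87.8 against 186 to 222 CPM (log2 difference -1.24 ± 0.25), a call lost without A2058 replicate 1 (adjusted p up to 0.284 over the settings that ended it). Of the 19 genes within 1000000 bases of CDKN2A that had any count, HACD4 had 50 and 85 counts in A2058 and 0 in the other 4 libraries, and MIR31HG had 7 and 23 counts in A2058 and 164 to 301 in the others. The antisense gene CDKN2B-AS1 had 1 to 11 counts in every library. Within this window only HACD4, CDKN2A and CDKN2B had more counts in both A2058 libraries than in each of the others. KLHL9 had 1148 and 1511 counts in A2058 and 2243 to 3696 in the others, and LINC01239 had 73 and 27 against 499 to 1896. HACD4, MIR31HG, CDKN2B-AS1, KLHL9 and LINC01239 were picked after their values were seen.

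Few other melanoma driver and suppressor genes differed: of 27 tested, 3 were higher (CDKN2A, CDKN2B and TERT) and 3 lower (MTAP, RB1 and MDM2), shares near those of all tested genes. The number of lower members varied with the library left out and was lowest without A2058 replicate 1. MDM2 lost its call there and with a minimum fold of 2. TERT, the telomerase catalytic subunit, stood at 35.2 and 31.5 CPM in A2058, 4.18 and 4.24 in A375 and 0.785 and 1.1 in SKMEL-5 (log2 difference 4.06 ± 0.27). RB1, the retinoblastoma protein, stood at 24.5 and 21.1 against 49.8 to 59.7 CPM, a call lost in the fit of all 12 libraries and with a minimum fold of 2 (adjusted p up to 0.208). BRAF was not called, with a log2 difference of -0.22 ± 0.27 (SE). Of 20 genes of MAPK output and feedback, 5 were lower and 0 higher, with a median log2 difference of -0.50. The early growth response gene EGR1 stood at 5.53 and 9.38 against 34.5 to 60.2 CPM, the feedback inhibitor SPRY4 at 58.6 and 78.1 against 235 to 281 CPM, and SPRED3, LIF and the phosphatase gene DUSP5 were lower too. The count of 0 higher was 0 or 1 when 1 library was left out.

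CDKN1A, DDB2 and BTG2, genes of growth arrest and DNA damage repair, were lower in A2058. CDKN1A (p21), the cyclin-dependent kinase inhibitor, stood at 16 and 29.4 CPM in A2058, 293 and 138 in A375 and 383 and 226 in SKMEL-5 (log2 difference -3.50 ± 0.51). The DNA damage recognition gene DDB2 stood at 24.5 and 15.8 against 68.1 to 88 CPM and the antiproliferative gene BTG2 at 3.83 and 2.99 against 14 to 23.2 CPM. None of these overlapped between the sides. GDF15, a stress cytokine, was higher in A2058, at 174 and 161 against 1.15 to 2.52 CPM (log2 difference 6.61 ± 0.35).

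Genes of the extracellular matrix were called higher more often than all tested genes (12.8%), and lower about as often (10.9%). Of 30 tested collagens and matrix proteins, 8 were higher and 3 lower, with a median log2 difference of -0.18. SPP1 (osteopontin) stood at 319.7 and 199.6 CPM in A2058, 1.2 and 3.42 in A375 and 6.23 and 12.1 in SKMEL-5 (log2 difference 5.82 ± 0.49). The fibrillin FBN2, at 7.48 and 19.7 against 0.0249 to 0.103 CPM, and the proteoglycan lumican (LUM), at 20.5 and 12 against 0.664 to 1.74 CPM, were higher too, whereas the collagen chain COL5A2 was lower, at 1.15 and 1.42 against 62.4 to 274 CPM (log2 difference -7.11 ± 0.68). The thrombospondin gene THBS2, which is outside the list and was picked after its values were seen, stood at 1715 and 2596 against 0.931 to 12.1 CPM (log2 difference 9.39 ± 0.72). Without A2058 replicate 1 and SKMEL-5 replicate 1, 12 members of the list were higher and 9 lower; leaving out 1 library gave 5 to 9 higher and 2 to 10 lower.

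Of 20 matrix proteases and inhibitors, 7 were higher and 3 lower, with a median log2 difference of 1.29. MMP1, the interstitial collagenase, had the largest difference, at 499 and 1039.6 CPM in A2058 against 0.823 to 2.71 CPM (log2 difference 9.11 ± 0.43). The membrane protease MMP14 stood at 378 and 957 against 80.4 to 189 CPM, and MMP8, MMP17, ADAMTS1, SERPINF1 and TIMP2 were higher as well. TIMP1, TIMP3 and SERPINE2, which inhibit matrix or serine proteases, were lower, SERPINE2 at 611 and 749 against 2481 to 3677 CPM. The calls of TIMP1 and TIMP3 were lost without A2058 replicate 1 or either A375 library, among other settings (adjusted p up to 0.243 and 0.116).

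Of 15 cadherins and cell adhesion molecules, 6 were higher and 2 lower, with a median log2 difference of 0.94. The neural adhesion molecule NCAM1 stood at 64.8 and 76.7 against 7.53 to 18.3 CPM (log2 difference 2.54 ± 0.26), and CHL1, CEACAM1, CADM1, PCDH7 and CDH1 were also higher. PCDH7 lost its call in the fit of all 12 libraries, with a minimum fold of 2, and without A2058 replicate 2 or A375 replicate 1. CDH1 (E-cadherin) was low on both sides, at 0.438 and 0.302 against 0 to 0.0414 CPM. CDH13 (T-cadherin) was lower, at 3.23 and 3.74 against 59.4 to 88.2 CPM (log2 difference -4.32 ± 0.28). Among 27 integrins and laminins, 5 were higher and 2 lower (median 0.18), led by the laminin chain LAMA1 at 169 and 361 against 5.07 to 11 CPM (log2 difference 5.18 ± 0.42). ITGA5 was one of the lower members and lost its call with a minimum fold of 2 and when any 1 library was left out.

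**Figure D3:**
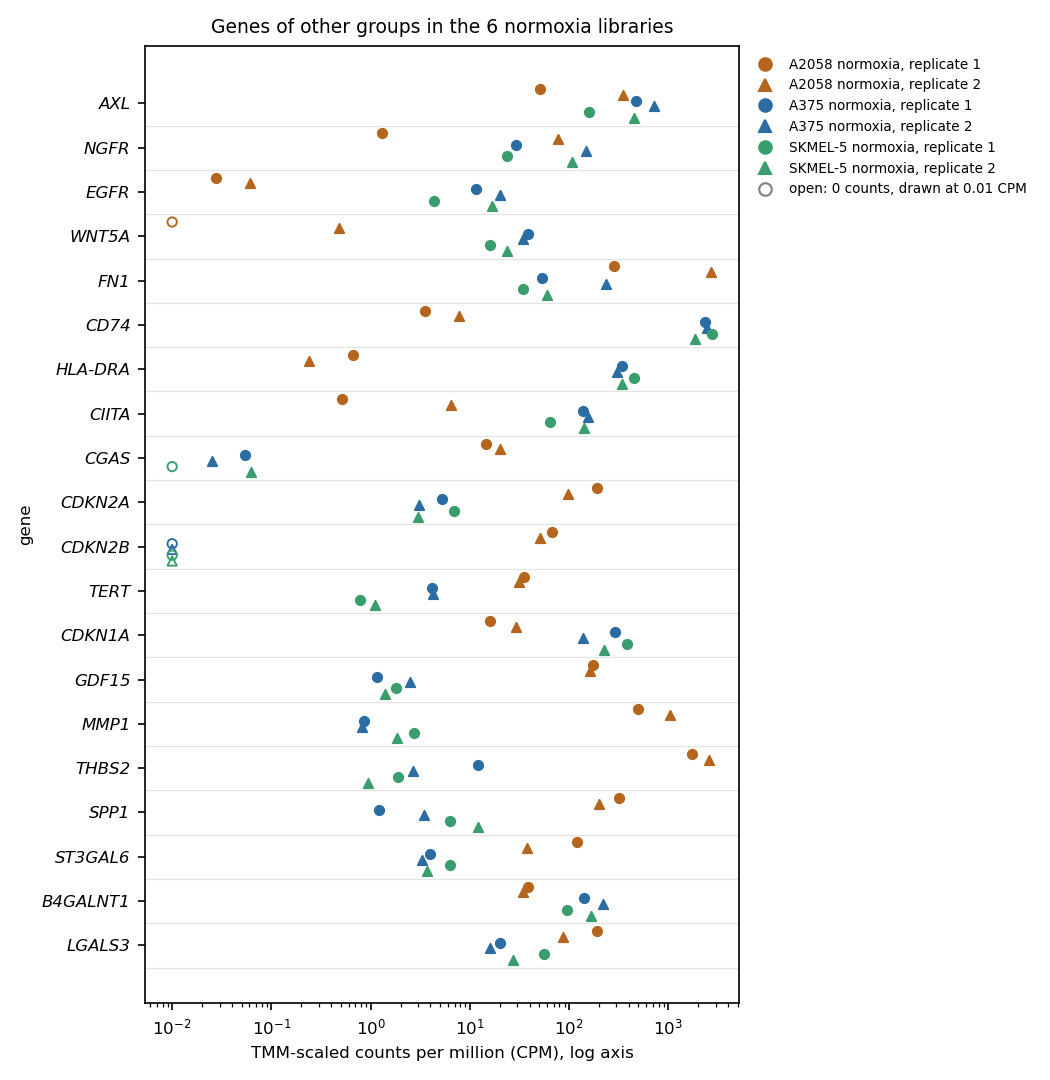
Level of 20 genes from the other groups in each of the 6 normoxia libraries (TMM-scaled CPM, log axis; circles replicate 1, triangles replicate 2, open symbols 0 counts drawn at 0.01 CPM). AXL and NGFR overlap between A2058 and the other lines, but are lowest in A2058 within each replicate number. CD74, HLA-DRA, CIITA and CDKN1A are low in both A2058 libraries, and CDKN2B, GDF15, MMP1 and THBS2 are high.

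The title of the series asks about glycobiology. Sialyltransferases cap glycans with sialic acid: of 16 tested, 6 were higher in A2058 and 2 lower, with a median log2 difference of 0.47. ST3GAL6 stood at 119 and 37.4 against 3.32 to 6.35 CPM (log2 difference 4.19 ± 0.46), ST6GALNAC2 at 10.8 and 9.44 against 0.103 to 0.502 CPM and ST8SIA1, the synthase of ganglioside GD3, at 36.8 and 23 against 2.22 to 5.28 CPM (log2 difference 3.15 ± 0.39). No library of A2058 overlapped the others for these. ST8SIA5 stood at 0.0274 and 0.0302 CPM in A2058, 1 count in each library, against 2.46 to 3.94 CPM (adjusted p = 0.00071).

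Ganglioside synthesis genes differed in both directions. Of 10 tested, 3 were higher and 4 lower, with a median log2 difference of 0.39; ST3GAL5, ST8SIA1 and ST8SIA5 are also in the sialyltransferase list. ST3GAL5, which makes GM3, and ST8SIA1, which makes GD3 from it, were higher, while B4GALNT1, which turns GM3 and GD3 into GM2 and GD2, was lower, at 38.5 and 33.9 CPM against 96.3 to 219 CPM (log2 difference -2.08 ± 0.35). B4GALT6, a lactosylceramide synthase that acts before ST3GAL5, was lower too, at 19.4 and 25.4 against 39.2 to 56.2 CPM (log2 difference -1.11 ± 0.25), and no order along the pathway was tested. Leaving out 1 library gave 2 to 4 lower members, the lowest without A2058 replicate 1 or A375 replicate 1. The globoside gene B3GALNT1 stood at 7.09 and 12 CPM with 0 counts in the others, at least 128-fold higher, and A4GALT, which acts before it, was lower, at 0.164 and 0.754 against 1.92 to 12 CPM. The A4GALT call was lost by limma-voom, with a minimum fold of 2 and without A2058 replicate 1 or either A375 library, among other settings. The ST3GAL5 call was lost with a minimum fold of 2 and without A2058 replicate 1 or A375 replicate 2.

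Of 8 tested fucosyltransferases, 2 were higher and 1 lower (median -0.11). FUT4 stood at 15.7 and 15.3 CPM in A2058 against 0 to 0.0952 CPM, from 0 to 4 counts per library in the others (adjusted p = 0.000322), while FUT9, which also adds the fucose of the Lewis X antigen, had 0 counts in A2058 against 0.823 to 1.43 CPM, at least 12.5-fold lower. Of 20 genes of N-glycan branching and poly-LacNAc, 5 were higher and 1 lower (median 0.34). GCNT2, the I-branching enzyme, stood at 43.7 and 56.6 against 4.61 to 7.53 CPM (log2 difference 3.10 ± 0.29) and MGAT4A at 7.61 and 7.84 against 0.823 to 1.83 CPM. B3GNT7, an extension enzyme, was lower, at 0.657 and 0.211 against 17.8 to 22.7 CPM (log2 difference -5.54 ± 0.53). Between 2 and 4 members of this list were higher when 1 library was left out.

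Of 6 tested galectins, 3 were higher and 0 lower (median 0.64). LGALS3 (galectin-3) stood at 189.9 and 87.4 CPM in A2058, 20.03 and 15.8 in A375 and 55.9 and 26.9 in SKMEL-5 (log2 difference 2.35 ± 0.39). Its ligand gene LGALS3BP, counted with the list, lost its call with a minimum fold of 2 and when any 1 library was left out. LGALS12 was at or below 3.02 CPM in every library. Of 18 proteoglycan cores, 4 were higher and 4 lower (median 0.48). The glypicans went in both directions: GPC2 was higher at 14.4 and 5.49 against 0.435 to 1.47 CPM, GPC4 had 0 counts in A2058 against 1.4 to 2.27 CPM (at least 22.2-fold lower), and GPC6 was lower at 5.89 and 2.84 against 29.5 to 50.3 CPM (log2 difference -3.19 ± 0.43). SPOCK1 was lower at 0.192 and 1.45 against 39.8 to 104 CPM, and among syndecans SDC2 was higher and SDC4 lower.

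HOX genes, which keep a record of position along the body axis, were higher more often than lower: 9 of 38 against 1, with a median log2 difference of 0.10. Members of the HOXD cluster led, with HOXD4 at 14.5 and 16.6 against 0.662 to 1.97 CPM (log2 difference 3.65 ± 0.36) and HOXD3 at 11.2 and 8.57 against 0.704 to 0.861 CPM. HOXA11 stood at 11.2 and 12.5 against 1.17 to 1.78 CPM. HOXB2 was the lower member and lost its call with a minimum fold of 2 and when any 1 of 4 libraries was left out. Leaving out 1 library left 4 to 8 members higher, the lowest without A2058 replicate 1 or either A375 library.

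**Figure D4:**
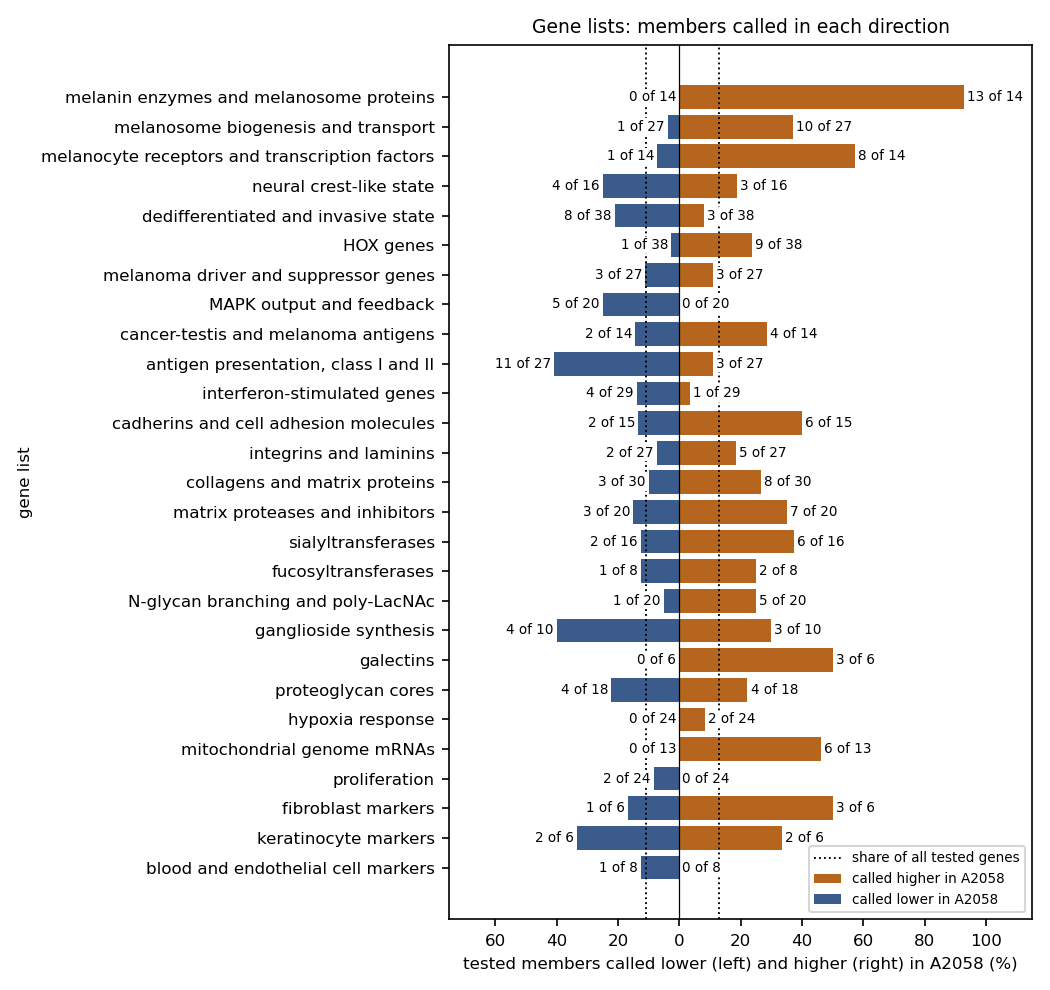
Share of the tested members of each of 27 gene lists called higher (right) and lower (left) in A2058, with the counts printed; dotted lines mark the shares of all tested genes, 12.8% and 10.9%. Melanosome genes reach furthest to the right, and antigen presentation and ganglioside synthesis furthest to the left.

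Markers of other cells and states were read for the same libraries. Of 24 proliferation genes, 0 were higher and 2 lower (PCNA and RRM2). Both lost their call with a minimum fold of 2. PCNA also lost its call when any 1 library was left out, and RRM2 without A2058 replicate 1, A375 replicate 2 or SKMEL-5 replicate 2. Of 24 hypoxia response genes, 2 were higher (EGLN3 and MXI1) and 0 lower. The number called higher varied with the library left out, and neither gene kept its call without A2058 replicate 1. MXI1 also lost its call without A375 replicate 2, in the fit of all 12 libraries and with a minimum fold of 2. Without A2058 replicate 1 and SKMEL-5 replicate 1 the counts were 5 and 3. Of 13 mRNAs of the mitochondrial genome, 6 were higher, with a median log2 difference of 1.79; leaving out 1 library gave 1 to 13, the lowest without A2058 replicate 1 or A375 replicate 1, and the replicate block 13. Without genes of the mitochondrial genome in the library size, 2310 genes were higher and 2007 lower.

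Of 6 tested fibroblast markers, LUM, COL1A1 and FAP were higher and PDGFRB lower, the COL1A1 call being lost without A2058 replicate 2 or either A375 library; the summed level of the 9 listed markers was 31.6 and 37.8 CPM in A2058 and 10.1 to 16.5 CPM in the others, with 1 or 2 of 9 at 0 in A2058. Keratinocyte markers were mixed (2 higher, DSP and CDH1, and 2 lower, KRT14 and KRT15, of 6 tested). Of 8 tested markers of blood and endothelial cells 0 were higher and LYZ was lower, and their summed level was at most 5.20 CPM in A2058 and 14.7 CPM in the others. PTPRC, CD3E and HBB, defining genes of blood cells, did not pass the low-count filter. The part of these markers in the other results was not tested.

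Each line was also set against A2058 alone. Against A375, 1612 genes were higher in A2058 (8.79%) and 1635 lower (8.91%), and against SKMEL-5, 1777 were higher (9.69%) and 1765 lower (9.62%). These contrasts share the A2058 libraries. Side by side, the log2 differences against A375 and SKMEL-5 were 9.47 and 10.45 for PMEL, -8.73 and -8.67 for CD74, -3.25 and -3.75 for CDKN1A, 9.83 and 8.40 for MMP1 and 2.98 and 5.14 for TERT.

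The same contrast was then fitted to the 6 libraries of the lines in 1% oxygen. Of 18431 tested genes, 1353 were higher in A2058 (7.34%) and 1211 lower (6.57%), 2564 in all; without hypoxic A2058 replicate 1 or 2 there were 626 and 333. Of the genes called higher in normoxia 44.3% were also called higher in hypoxia, which is 77.2% of the genes called higher in hypoxia. For lower genes the shares were 53.2% and 88.1%, and 0 genes were called in opposite directions. TYR stood at 108 and 191 CPM in hypoxic A2058 replicates 1 and 2 and had 0 counts in the hypoxic libraries of the other lines, PMEL at 516 and 2946 against 0.503 to 1.24 CPM, and CD74 at 7.11 and 3.42 against 1986 to 4179 CPM. AXL again overlapped, at 267 and 342 against 335 to 794 CPM, although within each replicate number it was lowest in A2058. LGALS3, called in normoxia, was not called in hypoxia (adjusted p = 0.616), with 77.3 and 139 CPM in A2058 and 28.2 to 109.9 CPM in the others. CDKN2A was not called there either (adjusted p = 0.285). It stood at 200 and 148 CPM in hypoxic A2058 against 3.66 to 93.1 CPM in the others, with no overlap.

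A test of whether the line difference itself depended on oxygen, in a fit of all 12 libraries, called 0% of 19636 genes. It had 652 genes at an unadjusted p under 0.05, DESeq2 called 16 and limma-voom 0. The loss of a call in hypoxia is thus not shown to be a change of the line difference. The hypoxic libraries had a larger spread, with a common biological coefficient of variation of 0.521 against 0.361 in normoxia.

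The called genes were spread unevenly over the nuclear chromosomes. On chromosomes 22, 13 and 6, 27.7%, 27.6% and 24.9% of tested genes were higher in A2058, against 12.8% over all, with median log2 differences of 0.64, 0.63 and 0.56. On chromosome X and chromosome 19, 18.1% and 17.7% were lower, against 10.9% over all, with medians of -0.39 and -0.34. DCT and EDNRB lie on chromosome 13, and the class II genes, which went the other way, on chromosome 6. Genes of a chromosome are not independent of each other, and no test was made.

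**Figure D5:**
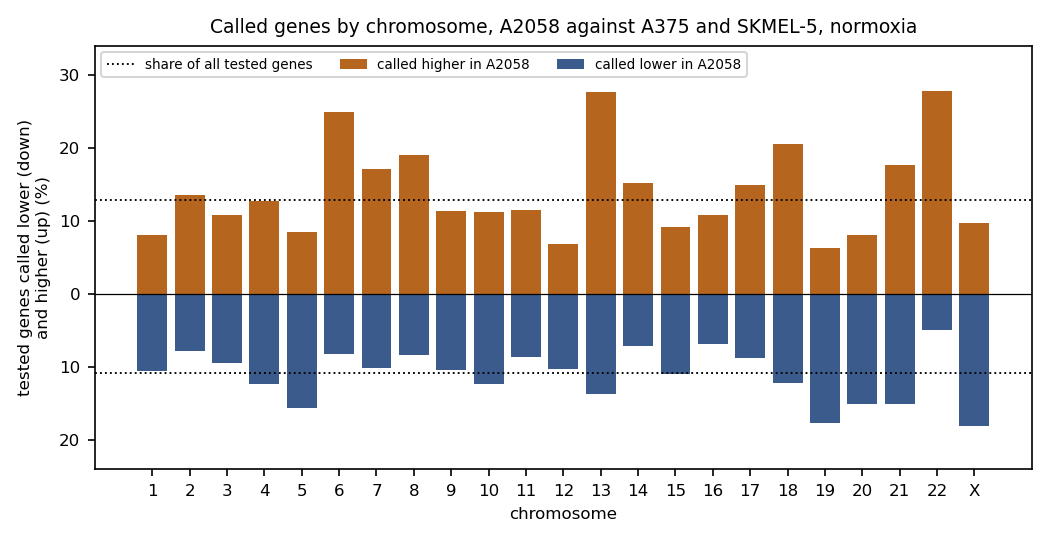
Share of the tested genes of each of chromosomes 1 to 22 and X called higher (up) and lower (down) in A2058; dotted lines mark the shares of all tested genes, 12.8% and 10.9%. Chromosomes 6, 13 and 22 have the tallest upper bars, and chromosomes 19 and X the longest lower bars.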

How the data were processed

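Libraries were made with a NuGen mRNA kit from RNeasy-extracted RNA, per the labels' protocols. The authors deposited 1 table of raw gene counts for all 12 libraries, with no normalization. STAR 2.5.0a, Trim Galore 0.6.1, bcl2fastq 2.20 and the build GRCh38 are listed in the submitters' processing notes. No source used here gives the counting tool, strand setting or annotation, and overlapping, antisense and near-identical genes could have been counted in more than 1 way. Symbols matched 60445 of 60656 IDs, and positions came from GENCODE 29.

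The 6 normoxia libraries were fitted in R 4.3.3 with edgeR 4.0.16: filterByExpr (minimum count 10, minimum total 15), TMM scaling, 1 mean per line and a quasi-likelihood test of A2058 minus the mean of A375 and SKMEL-5 (3 residual and 4.38 prior degrees of freedom). Standard errors are the absolute log2 difference divided by the root of the F statistic. The members, the 28 gene lists and the tests were chosen with earlier results of these data known. On simulated counts with 18347 genes for this comparison, 2% of 100 genes changed 2-fold and 69% of 100 changed 4-fold were recovered, with 8 false calls. No other gene was changed in the simulation, whereas 2355 and 2005 genes were called in the data. A smaller share of changed genes makes the adjustment of p stricter, so the recovered shares do not carry over to the data.

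Named genes were TYR, PMEL, MLANA, AXL, MITF, SOX10, TYRP1, DCT, NGFR, EGFR, CDKN2A and BRAF; the 8 largest called differences each way among coding genes of at least 5 CPM in every library of the higher side, and again among those with at least 1 CPM in the other libraries; up to 3 called members of each list each way; and 2 non-coding genes each way. Members named beyond these spell out a list's count. Some genes and 1 of the lists are not reported here. THBS1, PAX3, MYO5A and MC1R, given with values though not called, and CA9, THBS2 and B4GALT6 were chosen after their values were seen.

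Replicate numbers come from the sample titles. The log2 differences of replicate 1 minus 2 correlated across genes at 0.28 between A2058 and A375, 0.50 between A2058 and SKMEL-5 and 0.61 between A375 and SKMEL-5. The main fit has no term for the replicate number, so its counts, standard errors and adjusted p-values are unpaired. Only the replicate block, an alternative, takes the numbers to pair the libraries. Alternatives were DESeq2 size factors, DESeq2 1.42.0, limma-voom (limma 3.58.1), other low-count filters, the replicate block, all 12 libraries, 2 groups, a minimum fold, mitochondrial genes left out, and each library left out.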

Additional observations from a re-analysis of the deposited data

How the results depend on the processing

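Of 144 named genes that were called, 106 kept direction and call under all 16 alternative settings other than the one added after seeing the data. A gene that a setting did not test was passed over there. Most named genes were chosen as the largest called differences, which favours a kept call, so this share does not stand for all called genes. In the fit of all 12 libraries, 1683 of the 2355 higher and 1572 of the 2005 lower genes kept their call. Leaving out 1 normoxia library gave 1356 to 2411 genes higher and 1200 to 1917 lower, the fewest higher without A375 replicate 2 and the fewest lower without A375 replicate 1. It gave 1115 to 3655 genes against A375 alone (main count 3247, lowest without A375 replicate 1, and 1292 without A375 replicate 2) and 2089 to 3417 against SKMEL-5 alone (main count 3542, lowest without SKMEL-5 replicate 1, 2199 without SKMEL-5 replicate 2, 2178 without A375 replicate 1 and 2197 without A375 replicate 2). Such fits have fewer samples and a lone library in 1 arm, assumed to vary like the other groups. In hypoxia (main count 2564), it gave 333 to 3562, with 626 without A2058 hypoxia replicate 1 and 333 without A2058 hypoxia replicate 2. The replicate block, the pairing by number, gave 4061 genes higher, 3741 lower, 6435 against A375 alone and 6985 against SKMEL-5 alone; among the named genes reported here it changed the call of AXL only. A minimum fold of 2 (glmTreat) left 1195 higher and 1220 lower by its construction. With no low-count filter, which tests more genes, 4963 genes differed between A2058 and A375 and 49 between A375 and SKMEL-5, 4419 in hypoxia and 98 in the test of oxygen dependence. DESeq2 gave 27 between A375 and SKMEL-5, 4012 in hypoxia and 16 in the test of oxygen dependence; the cause was not tested. Without A2058 replicate 1 and SKMEL-5 replicate 1, a setting added after seeing the data, 2404 genes were higher and 2230 lower. The log2 difference of SOX10, not called, changed sign, from -0.10 to 0.02 without SKMEL-5 replicate 1 and 0.049 without A2058 replicate 1 and SKMEL-5 replicate 1; it was -0.22 without SKMEL-5 replicate 2. In simulated counts for the fit without the block, where far fewer genes were changed than are called in the data, 2% of genes changed 2-fold were recovered. The block, other depths and a larger share of changed genes were not simulated.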

Other observations

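Although no gene was called between A375 and the libraries labelled SKMEL-5 by edgeR, 11 genes with at least 5 CPM in some library differed at least 4-fold with no overlap between the 2 lines, a rule set after the data were seen. MITF stood at 23.3 and 18.1 CPM in A375 replicates 1 and 2 and at 181 and 119 CPM in SKMEL-5, a log2 difference of -2.85 ± 0.33 (SE, adjusted p = 0.782). The matrix gene COL6A3 stood at 57.1 and 39.3 CPM in A375 and at 6.57 and 7.60 CPM in SKMEL-5. PLEKHA6 stood at 5.33 and 3.89 against 0.50 and 0.228 CPM. The fatty acid binding protein FABP7 stood at 2.22 and 1.12 CPM in A375 and at 9.59 and 4.22 CPM in SKMEL-5. TSSC2 and GAGE2A were higher in SKMEL-5 too, and both are pseudogenes or members of a family of near-identical copies.

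The A2058 replicates also differed from each other. Of 11404 genes with at least 5 CPM in either, 142 were at least 4-fold higher in replicate 2 and 88 at least 4-fold higher in replicate 1, on log2(CPM + 0.5). TYR, at 9.998 and 96.9 CPM, and SLC45A2, at 0.548 and 11.7 CPM, were among the pigment genes higher in replicate 2, while DCT, at 1096 and 677 CPM, was not. The hypoxia gene BNIP3 stood at 279 and 42.5 CPM.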
